A study of Homo sapiens with 9 samples.

Results

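The 10 genes described here are feedback regulators and targets of the RAS to ERK kinase pathway. They are the MAP kinase phosphatases DUSP1, DUSP4, DUSP5 and DUSP6, the Sprouty genes SPRY2 and SPRY4, the Sprouty-related genes SPRED1 and SPRED2, and the ERK-induced genes PHLDA1 and ETV5. They were chosen by name with earlier results of these data known, as were the lists of related genes below. They make up 10 of the 56865 genes to which estimated reads were summed in 9 libraries. All 10 were among the 13914 genes that passed the filter on low counts, so none is left out below.

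The libraries were made from poly(A)-selected RNA and form 3 groups of 3, MS172, PK9328 and the vehicle DMSO. All 9, the DMSO controls included, carry the cell line label BxPC3, a human pancreatic tumour line. Their genotype label is p53Y220C/-, that is, 1 mutant p53 allele with no second allele. PK9328 is known as a small molecule that binds mutant p53, and the study asked how MS172 changes gene expression relative to DMSO. The dose of 5 µM and the time of 6 h come from a protocol that names PK9328 and MS78, whereas titles and treatment labels name MS172, and the titles name the groups below. Nothing states that the replicates were separate cultures, and p-values thus cover only sample-to-sample spread, possibly technical.

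Depth was 24077353 to 28031886 estimated reads per library. Of 9 epithelial and ductal markers, 6 reached 1 CPM (the count scaled to library size) in some library, but EPCAM, CDH1 and KRT7 stood at no more than 0.0745, 0.0417 and 0.103 CPM, against 9760 to 10383 CPM for the mesenchymal gene VIM with MS172, 8080 to 8310 CPM with PK9328 and 9198 to 9568 CPM with DMSO. Other members of both lists went the other way. The 6 included KRT18, at 926 to 984 CPM with MS172, 710 to 750 CPM with PK9328 and 748 to 818 CPM with DMSO. The mesenchymal markers CDH2, FN1 and COL1A1 reached no more than 0.171, 0.775 and 2.04 CPM in any library. COL1A2, of the same list, was high like VIM, at 2456 to 2548 CPM with MS172, 1799 to 1834 CPM with PK9328 and 2295 to 2490 CPM with DMSO. ZEB1 had 80.1 to 88.3 CPM with MS172, 97.0 to 103 CPM with PK9328 and 88.7 to 97.3 CPM with DMSO. The markers were thus mixed, and the line is named by its label only. The summed epithelial markers were 2625 to 2788 CPM with MS172, 2011 to 2091 CPM with PK9328 and 2156 to 2325 CPM with DMSO, and the 6 mesenchymal markers summed to 12398 to 12923 CPM with MS172, 9978 to 10246 CPM with PK9328 and 11787 to 11963 CPM with DMSO. Leukocyte and endothelial markers stayed under 0.449 CPM in sum, and acinar and endocrine markers were at 0. Fragment length also moved with the groups, at 274 to 293 bases with MS172, 249.5 to 263 bases with PK9328 and 281 to 289 bases with DMSO, so that every PK9328 library had shorter fragments than the other 6. The part of the marker sums in the results below was not tested.

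ERK, the last kinase of the RAS to ERK cascade, enters the nucleus and raises the transcription of genes whose products switch the cascade off again. Dual specificity phosphatases remove the phosphates that activate MAP kinases, Sprouty proteins act near receptors and RAF, and SPRED proteins bring the RAS inhibitor neurofibromin to the membrane. The messages of these feedback genes turn over fast, and their levels are widely read as a gauge of recent ERK output.

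The promoters of 7 of the 10 genes matched the RefSeq table by symbol (SPRED2 with 2 start sites and SPRY2 with 3), and DUSP4, DUSP5 and ETV5 did not match. The 200 bases before the start site of 4 of the genes whose levels are described below are shown on GRCh38.p14, 5′ to 3′, so that the motifs counted afterwards can be seen in place. Capitals mark a match, on either strand, to TGACG (the core of the cAMP response element), CGGAAG (an ETS core), TGAATGA or TGAATGG (letters searched for the repressor Capicua, not shown to be full sites), or TGACTCA (AP-1).
DUSP1 promoter, chr5:172771196-172771395, minus strand: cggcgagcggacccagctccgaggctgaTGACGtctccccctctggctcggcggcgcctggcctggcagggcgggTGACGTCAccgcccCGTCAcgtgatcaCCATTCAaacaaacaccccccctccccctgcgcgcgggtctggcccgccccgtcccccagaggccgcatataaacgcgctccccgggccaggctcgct
DUSP6 promoter, chr12:89352502-89352701, minus strand: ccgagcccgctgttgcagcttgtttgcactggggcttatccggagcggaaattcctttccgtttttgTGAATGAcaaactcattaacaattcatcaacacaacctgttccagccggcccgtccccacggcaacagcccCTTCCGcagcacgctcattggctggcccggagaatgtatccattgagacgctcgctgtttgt
SPRY4 promoter, chr5:142324248-142324447, minus strand: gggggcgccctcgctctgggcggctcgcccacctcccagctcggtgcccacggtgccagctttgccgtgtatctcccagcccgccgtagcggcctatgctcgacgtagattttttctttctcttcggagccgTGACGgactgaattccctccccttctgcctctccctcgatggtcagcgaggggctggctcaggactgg
PHLDA1 promoter, chr12:76031777-76031976, minus strand: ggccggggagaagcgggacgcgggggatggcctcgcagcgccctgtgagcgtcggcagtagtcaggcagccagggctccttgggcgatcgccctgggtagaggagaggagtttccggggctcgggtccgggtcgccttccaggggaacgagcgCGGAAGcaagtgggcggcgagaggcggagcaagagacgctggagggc
The DUSP1 stretch holds 5 matches, among them a full palindrome TGACGTCA counted as overlapping matches. The DUSP6 stretch holds an ETS core at -62 and a Capicua motif at -133 bases from the start site.

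DUSP1, a nuclear phosphatase that acts on p38, JNK and ERK, rose with both compounds. It had 16.9, 17.9 and 19.1 CPM in the MS172 libraries, 17.5, 19.5 and 19.4 CPM in the PK9328 libraries and 14.8, 15.4 and 14.5 CPM in the DMSO libraries, so all 6 compound libraries lay above all 3 controls while those of the compounds overlapped. The log2 fold change was 0.26 ± 0.08 (SE) for MS172 against DMSO, with an adjusted p of 0.00794 in edgeR's quasi-likelihood test. For PK9328 against DMSO it was 0.33 ± 0.07 with an adjusted p of 0.00226. The 2 comparisons share the DMSO libraries. Between the compounds the difference was -0.07 with a 95% interval of -0.22 to 0.08 and an adjusted p of 0.464, which leaves room for a difference in either direction. Without MS172 replicate 3 the MS172 rise was 0.22 with an adjusted p of 0.05004, just past the threshold of 0.05. DUSP1 (ENSG00000120129.5) lies on the minus strand of chromosome 5 at 172768090 to 172771195 (GENCODE 29, GRCh38), where a single annotated transcript carries all its reads.

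The other nuclear phosphatases could be measured less well. DUSP5, an ERK phosphatase of the nucleus (chromosome 10, 110497838 to 110511544, plus strand), had 12.6, 11.9 and 10.9 CPM with MS172, 11.6, 11.6 and 10.9 CPM with PK9328 and 10.2, 10.2 and 11.7 CPM with DMSO. The groups overlapped, and none of its 3 comparisons passed the test, with intervals of -0.04 to 0.33 for MS172 against DMSO and -0.09 to 0.28 for PK9328 against DMSO. DUSP4, which removes phosphate from ERK and JNK and lies on chromosome 8, had 1.35, 1.11 and 1.04 CPM with MS172, 1.03, 1.61 and 1.97 CPM with PK9328 and 1.201, 1.42 and 1.59 CPM with DMSO. Those values rest on 25 to 33 reads per MS172 library, 28 to 53 per PK9328 library and 31 to 41 per DMSO library. Its interval ran from -0.82 to 0.29 (log2) for MS172 against DMSO and from -0.94 to 0.16 for MS172 against PK9328. With so few reads, changes within these intervals were not excluded.

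DUSP6, the cytoplasmic phosphatase specific for ERK and a common readout of MEK inhibition, was close to the limit of detection in these cells. It had 0.490, 0.399 and 0.501 CPM in the MS172 libraries, 0.330, 0.376 and 0.447 CPM in the PK9328 libraries and 0.543, 0.555 and 0.367 CPM in the DMSO libraries. The groups overlapped, and no library held more than 16 reads of the gene (9 to 12 with MS172, 9 to 12 with PK9328, 9 to 16 with DMSO). The 95% interval spanned -0.90 to 0.74 for MS172 against DMSO, -1.18 to 0.48 for PK9328 against DMSO and -0.58 to 1.12 for MS172 against PK9328. With so few reads, changes of DUSP6 within these intervals were not excluded, and its estimated transcript split swung widely between libraries of 1 group. DUSP6 lies on chromosome 12 at 89347232 to 89353271, minus strand.

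**Figure D1:**
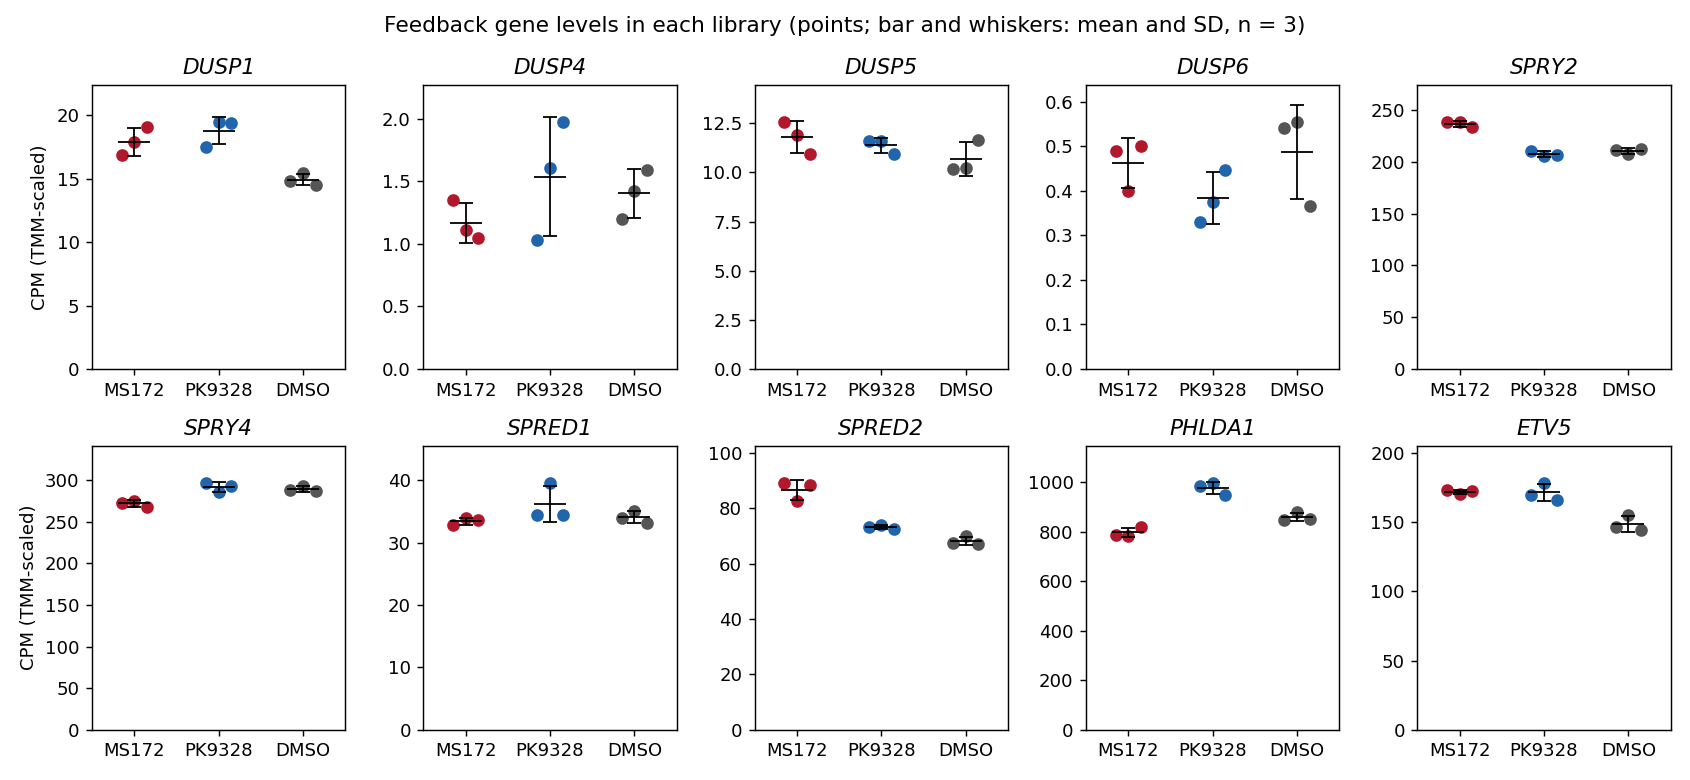
Each panel plots the TMM-scaled CPM of 1 of the 10 genes in every library (points) of MS172, PK9328 and DMSO, with the mean and SD of 3 libraries as bar and whiskers, on an axis from 0. DUSP1 stands higher with both compounds than with DMSO, SPRED2 and SPRY2 are highest with MS172, PHLDA1 is highest with PK9328, and DUSP6 stays at or under 0.555 CPM in every library.

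Among the Sprouty and SPRED genes, SPRED2 and SPRY2 rose with MS172, SPRY4 was slightly lower, and SPRED1 gave no call. SPRED2, an inhibitor of RAS and RAF signalling (chromosome 2, 65310851 to 65432637, minus strand), had 89.3, 82.6 and 88.4 CPM with MS172, 73.1, 74.1 and 72.7 CPM with PK9328 and 67.6, 69.9 and 67.2 CPM with DMSO. The 3 groups were separate, with MS172 at the top and PK9328 between. The MS172 rise of 0.35 ± 0.04 over DMSO (1.27-fold, adjusted p = 2.92e-07) was the highest log2 fold change among the 10 genes in that comparison. With PK9328 the change was 0.10 with an interval of 0.01 to 0.19 and did not pass the threshold (edgeR adjusted p = 0.11). MS172 exceeded PK9328 by 0.24 ± 0.04 with an adjusted p of 2.7e-05. That difference was 0.16 with an adjusted p of 0.0584 when the counts were rebuilt from length-scaled TPM (a level per transcript length).

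SPRY2, which restrains signalling from growth factor receptors (chromosome 13, 80335976 to 80340951, minus strand), had 239, 239 and 234 CPM with MS172, 211, 206 and 207 CPM with PK9328 and 211, 207 and 213 CPM with DMSO. All 3 MS172 libraries lay above the other 6, and those of PK9328 and DMSO overlapped. The log2 fold change was 0.17 ± 0.03 for MS172 against DMSO (adjusted p = 0.00024) and 0.19 ± 0.03 for MS172 against PK9328 (adjusted p = 3.36e-05). For PK9328 against DMSO it was -0.02 with an interval of -0.09 to 0.05. The rise of 1.13-fold exceeded the spread within each group, where the coefficient of variation was 1.26% with MS172, 1.21% with PK9328 and 1.4% with DMSO.

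SPRY4, a Sprouty protein that acts upstream of RAF (chromosome 5, 142310427 to 142326455, minus strand), had 273, 276 and 268 CPM with MS172, 297, 286 and 293 CPM with PK9328 and 288, 293 and 287 CPM with DMSO. Every MS172 library was below every other library. The log2 fold change was -0.09 ± 0.03 for MS172 against DMSO (adjusted p = 0.0434) and -0.10 ± 0.03 for MS172 against PK9328 (adjusted p = 0.0144), while PK9328 against DMSO gave 0.01 with an interval of -0.06 to 0.08. The first of these calls was lost in 15 of 20 alternative analyses, among them the fits without each of the 3 MS172 and 3 DMSO libraries in turn, where adjusted p ran up to 0.128. The second was lost without MS172 replicate 3 (adjusted p = 0.0557) and without PK9328 replicate 1 (adjusted p = 0.0623). Both values turned slightly positive, at 0.0323 and 0.0265, with the uncentred offset for GC content and transcript length.

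SPRED1, the neurofibromin partner lost in Legius syndrome (chromosome 15, 38252326 to 38357249, plus strand), had 32.8, 33.9 and 33.6 CPM with MS172, 34.5, 39.6 and 34.5 CPM with PK9328 and 34.0, 35.1 and 33.2 CPM with DMSO. The MS172 libraries were all below the PK9328 libraries, and both groups overlapped DMSO. The interval was -0.15 to 0.09 for MS172 against DMSO and -0.03 to 0.20 for PK9328 against DMSO. The difference between the compounds was -0.12 ± 0.06 with an adjusted p of 0.104.

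PHLDA1, a pleckstrin homology-like protein whose transcription follows ERK activity, moved in opposite directions with the 2 compounds. The gene had 788, 784 and 819 CPM in the MS172 libraries, 985, 998 and 949 CPM in the PK9328 libraries and 848, 879.5 and 852 CPM in the DMSO libraries. No group overlapped another, with DMSO between the compounds. PK9328 libraries were higher than DMSO by 0.18 ± 0.04 (adjusted p = 0.000717). MS172 libraries were lower than DMSO by a log2 fold change of -0.11 ± 0.04 (adjusted p = 0.0213). Set directly against each other, the compounds differed by -0.29 ± 0.04 (adjusted p = 1.36e-07), a call that held in all 20 alternatives. The fall against DMSO was less firm, since its call was lost in 7 of 20 alternatives, among them the fits without MS172 replicate 1, MS172 replicate 2 or DMSO replicate 2 (adjusted p = 0.0759, 0.0940 and 0.0766) and the centred GC and length offset (adjusted p = 0.128). With the uncentred offset its value was 0.0027.

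An antisense gene annotated across PHLDA1 showed the same order of groups. AC011611.3 had 0, 0.222 and 0.501 CPM with MS172, 9.25, 15.8 and 23.6 CPM with PK9328 and 2.25, 0.833 and 2.69 CPM with DMSO, again with no overlap between groups. Its log2 fold change for PK9328 against DMSO was 3.10 (adjusted p = 0.0131), for MS172 against DMSO -2.95 (adjusted p = 0.0873), and for MS172 against PK9328 -6.05 (adjusted p = 0.000952). The sizes with MS172 are uncertain, since they rest on values of 0 to 0.501 CPM. Whether the counting used strand is not given in the sources used here, so reads of the antisense gene and of PHLDA1 cannot be told apart with certainty. PHLDA1 lies on chromosome 12 at 76025447 to 76033932, minus strand. SPRY4-AS1, the antisense gene over SPRY4, stood at 0.751 to 1.198 CPM with MS172, 1.21 to 1.41 CPM with PK9328 and 0.774 to 0.969 CPM with DMSO.

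ETV5, an ETS transcription factor of the PEA3 family that ERK and FGF signalling induce (chromosome 3, 186046308 to 186110318, minus strand), rose with both compounds. The libraries had 173, 170.3 and 172.4 CPM with MS172, 169.9, 179 and 166 CPM with PK9328 and 146, 155 and 144 CPM with DMSO. All 6 compound libraries were above the controls. The log2 fold change was 0.21 ± 0.04 for MS172 against DMSO (adjusted p = 7.7e-05) and 0.21 ± 0.04 for PK9328 against DMSO (adjusted p = 0.000254). The difference between the compounds was 0.00 with an interval of -0.08 to 0.08.

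**Figure D2:**
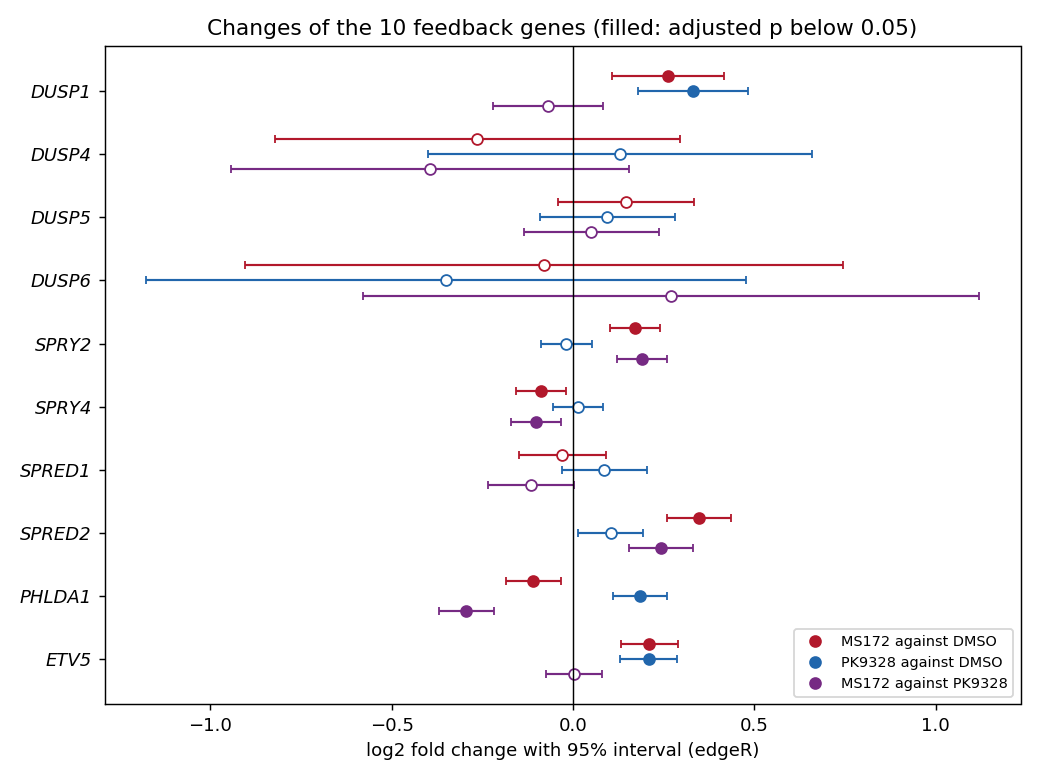
Points give the edgeR log2 fold change of each of the 10 genes with its 95% interval for MS172 against DMSO, PK9328 against DMSO and MS172 against PK9328, filled where the adjusted p is below 0.05. DUSP1 and ETV5 lie to the right of 0 for both compounds, PHLDA1 lies on opposite sides for them, and the intervals of DUSP4 and DUSP6 are the widest.

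Counted together, 4 of the 10 genes were higher with MS172 than with DMSO (DUSP1, SPRY2, SPRED2 and ETV5), 2 were lower (SPRY4 and PHLDA1) and 4 gave no call, whereas among all tested genes 17.9% were higher, 17.2% were lower and 35.1% were called in either direction. The median log2 fold change of the 10 was 0.06, against -0.02 over all tested genes, and single values ran from -0.26 to 0.35. The groups did not overlap for 6 of the 10, against 44.7% of all tested genes.

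With PK9328 against DMSO, 3 of the 10 were higher (DUSP1, PHLDA1 and ETV5), against 7.98% of all tested genes. None was lower in edgeR, DESeq2 or limma-voom, with 0 of 10 at an unadjusted p under 0.05 in edgeR, against 7.48% of all tested genes called lower and 15.5% called in either direction. The median was 0.10 for the 10 genes and 0.00 for all tested genes, and 4 of the 10 did not overlap, against 31.3%. With fragment length as a covariate, the 3 log2 fold changes were as large or larger, at 0.42 for DUSP1, 0.24 for PHLDA1 and 0.25 for ETV5. None of them passed in that fit (adjusted p = 0.219, 0.104 and 0.117), in which 109 genes were called higher and 66 lower in all.

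Between the compounds, 2 of the 10 were higher with MS172 than with PK9328 (SPRY2 and SPRED2) and 2 were lower (SPRY4 and PHLDA1), against 23.3% and 24.4% of all tested genes and 47.7% called in either direction. The median of the 10 was -0.03, the same as the -0.03 of all tested genes, and 5 of the 10 did not overlap, against 55.4%. Set side by side over DMSO, 2 genes were higher with both compounds, 2 were higher with MS172 and not called with PK9328, and 1 was lower with MS172 and higher with PK9328. A further 1 was lower with MS172 and not called with PK9328, and 4 gave no call with either.

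Levels per length ranked the 10 genes alike in every group. PHLDA1 led with 155 ± 5.9 TPM in MS172 libraries, 218 ± 9.7 TPM in PK9328 libraries and 185 ± 10.2 TPM in DMSO libraries (SD, n = 3). SPRY2 followed with means of 134 TPM with MS172, 135 TPM with PK9328 and 133 TPM with DMSO, and SPRY4 with 65.8 TPM with MS172, 84.8 TPM with PK9328 and 79.2 TPM with DMSO. Next came ETV5 (53.3 TPM with MS172, 63.9 with PK9328, 53.6 with DMSO) and SPRED2 (25.5 TPM with MS172, 26.4 with PK9328, 22.8 with DMSO). The phosphatases and SPRED1 stood lower. DUSP1 averaged 11.0 TPM with MS172, 13.1 TPM with PK9328 and 10.2 TPM with DMSO, SPRED1 5.62 TPM with MS172, 7.16 TPM with PK9328 and 5.98 TPM with DMSO, and DUSP5 5.52 TPM with MS172, 6.09 TPM with PK9328 and 5.55 TPM with DMSO. At the bottom, DUSP4 averaged 0.236 TPM with MS172, 0.357 TPM with PK9328 and 0.316 TPM with DMSO, and DUSP6 averaged 0.207 TPM with MS172, 0.143 TPM with PK9328 and 0.200 TPM with DMSO. In this order the neighbours SPRED1 and DUSP5 overlapped with MS172 and with DMSO, and DUSP4 and DUSP6 overlapped with MS172.

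TPM values are scaled without TMM, and the median log2 ratio of mean TPM over all tested genes was -0.18 for MS172 against DMSO, 0.05 for PK9328 against DMSO and -0.24 for MS172 against PK9328. On that scale SPRY2 and ETV5 stood at 0.01 and -0.01 for MS172 against DMSO, above the median, and DUSP1 and SPRED2 at 0.11 and 0.16. SPRY4 and PHLDA1 stood at -0.27 and -0.26, below the median. In TPM the MS172 and DMSO libraries overlapped for DUSP1, SPRY2, SPRED2 and ETV5, and did not for SPRY4 and PHLDA1. For MS172 against PK9328, SPRED2 and SPRY2 were at -0.05 and -0.0041, so that the sign of these 2 depends on the scale, although both lay above the median. DUSP1 and ETV5, not called between the compounds, were at -0.25 and -0.26 without overlap, near the median of -0.24.

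**Figure D3:**
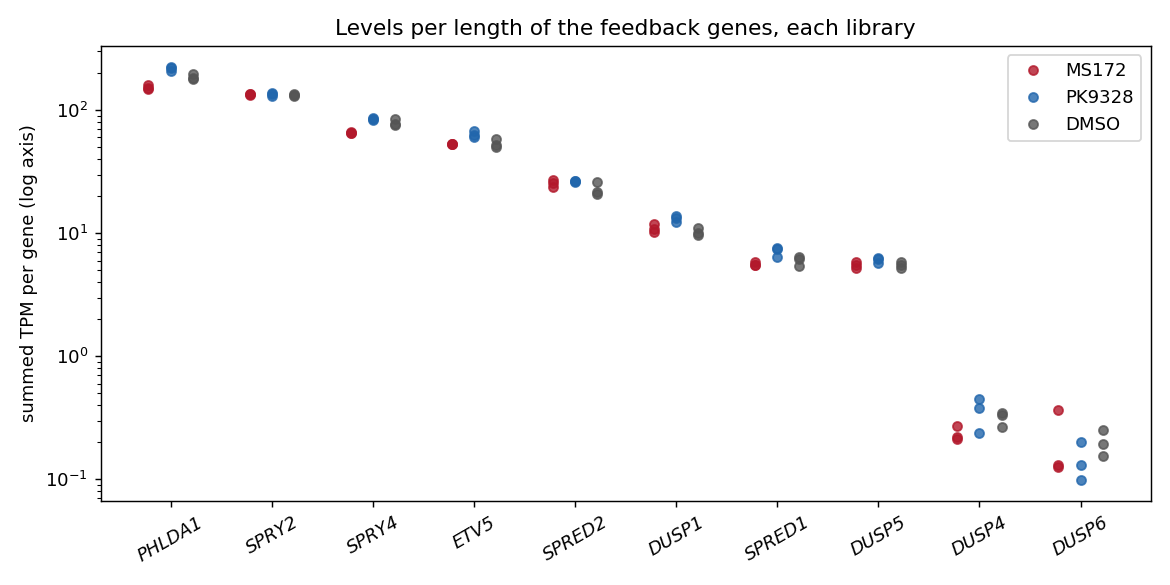
Points give the summed TPM of each of the 10 genes in every library on a log axis, coloured by group and ordered by level. The genes span from 0.0984 TPM (DUSP6) to 226 TPM (PHLDA1), both with PK9328, and the order of the group means is the same in the 3 groups.

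The estimated transcript make-up of some genes also differed between groups, given here as shares of the gene's TPM. A minor transcript of SPRY4 held 8.99% to 10.3% of SPRY4 with MS172, 15.05% to 19.4% with PK9328 and 11.1% to 14.5% with DMSO, with no overlap. The minor of the 2 SPRY2 transcripts held 7.77% to 8.62% of SPRY2 with MS172, 6.57% to 7.36% with PK9328 and 5.97% to 6.55% with DMSO. A processed transcript of ETV5 held 8.47% to 11.6% of ETV5 with MS172, 12.3% to 13.6% with PK9328 and 13.4% to 14.1% with DMSO, and the leading PHLDA1 transcript held 89.1% to 94.6% of that gene over all libraries. These shares are estimates without a test, and the part that fragment length has in them was not tested.

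Most of the other MAP kinase phosphatases also rose with MS172. Of 6 other MAP kinase phosphatases, 5 were tested, 4 rose with MS172 over DMSO, against 17.9% of all tested genes, and none fell (in DESeq2 and limma-voom none was called lower either, and 0 of 5 had an unadjusted p under 0.05 on that side). DUSP8, which acts on JNK and p38, rose by 0.96 ± 0.07 (24.1 ± 1.2 CPM with MS172, 12.4 ± 0.32 CPM with DMSO, adjusted p = 1.96e-11), the inducible nuclear phosphatase DUSP2 by 0.36 ± 0.11, the JNK phosphatase DUSP16 by 0.21 ± 0.05 and the cytoplasmic ERK phosphatase DUSP7 by 0.15 ± 0.05. With PK9328 against DMSO, DUSP16 alone of the 5 was called, at 0.21 ± 0.05, against 7.98% of all tested genes called higher. DUSP8 and DUSP7 were higher with MS172 than with PK9328, by 0.88 ± 0.07 and 0.26 ± 0.05. Over all tested genes 23.3% were higher there. The median of the 5 was 0.21 for MS172 against DMSO, against -0.02 over all tested genes.

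The atypical dual specificity phosphatases, which lack the MAP kinase-binding part, were called in both directions with MS172. Of 8 tested out of 10, DUSP14 rose with MS172 over DMSO (0.22 ± 0.06) and DUSP28 and DUSP12 fell (-1.04 ± 0.28 and -0.26 ± 0.10). Thus 1 of the 8 rose and 2 fell, against 17.9% and 17.2% of all tested genes. DUSP28 was low throughout, at 0.72 ± 0.16 CPM with MS172 and 1.48 ± 0.05 CPM with DMSO. DUSP12 and DUSP11 rose with PK9328 over DMSO (0.39 ± 0.09 and 0.20 ± 0.07), against 7.98% of all tested genes. DUSP12 had 9.24 ± 1.1 CPM with MS172, 14.6 ± 0.94 CPM with PK9328 and 11.1 ± 0.24 CPM with DMSO. Between the compounds, 5 of the 8 were lower with MS172 and 0 higher in edgeR, DESeq2 and limma-voom, with 0 at an unadjusted p under 0.05 on the higher side, against 24.4% lower and 23.3% higher over all tested genes.

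In the remaining Sprouty and SPRED genes and their partners, 6 of 7 were tested. With MS172 over DMSO 1 rose and 1 fell, against 17.9% and 17.2% of all tested genes. With PK9328 over DMSO 0 rose and 2 fell, against 7.98% and 7.48%. SPRED3 fell with MS172 over DMSO by 0.33 on the log2 scale (8.05 ± 0.54 CPM with MS172, 10.1 ± 0.52 CPM with DMSO, adjusted p = 0.00899), the opposite direction to SPRED2, and TESK1, a kinase that Sprouty and SPRED proteins bind, rose by 0.33 ± 0.09. SPRY1 fell with PK9328 over DMSO by 0.21 on the log2 scale (106 ± 5.0 CPM with PK9328, 122.9 ± 3.9 CPM with DMSO), as did the caveolin gene CAV1 by 0.17. Of the 6, 3 were higher and 1 lower with MS172 than with PK9328, against 23.3% and 24.4% of all tested genes. SPRY1 was among the higher, by 0.18 ± 0.04.

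The list of 24 other ERK-responsive genes was tested in full. With MS172 against DMSO 10 rose and 5 fell, against 17.9% and 17.2% of all tested genes. With PK9328 against DMSO 8 rose and 5 fell, against 7.98% and 7.48%. Between the compounds 11 were higher and 6 lower with MS172, against 23.3% and 24.4%. HBEGF, a ligand of the EGF receptor, rose with MS172 over DMSO by 0.95 ± 0.06 (40.0 ± 0.66 CPM with MS172, 20.6 ± 1.0 CPM with DMSO). The AP-1 gene FOSL1 rose by 0.64 ± 0.04 and the small MAF factor MAFF by 0.60 ± 0.05. The 5 that fell with MS172 over DMSO, named after their values were seen, were IER2 (-0.41), SLC20A1 (-0.35), EGR1 (-0.25), SH2B3 (-0.19) and EPHA4 (-0.14). With PK9328, MAFF and HBEGF rose by 0.43 ± 0.05 and 0.41 ± 0.06, and the cyclin gene CCND1 fell by 0.38 (213 ± 2.2 CPM with PK9328, 277 ± 5.9 CPM with DMSO), as did the urokinase receptor gene PLAUR by 0.24. ETV4, a PEA3 family factor like ETV5, was higher with MS172 than with PK9328 by 0.50 ± 0.04, whereas ETV5 differed by 0.00.

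Of 24 genes of the RAS to ERK cascade itself, 8 rose and 2 fell with MS172 over DMSO, against 17.9% higher, 17.2% lower and 35.1% called in either direction over all tested genes. Those that rose include the kinase gene MAP2K2 (0.27 ± 0.04), the adaptors SHC1 (0.23 ± 0.04) and GRB2 (0.18 ± 0.03) and the GTPase HRAS (0.24 ± 0.05). The 2 log2 fold changes of those that fell were -0.22 and -0.28, of which -0.28 belongs to KSR1, a scaffold of the RAF and MEK kinases, named after its value was seen. With PK9328 over DMSO, edgeR called 0 of 24 in either direction, with 1 gene on each side at an unadjusted p under 0.05. DESeq2 called 1 lower there and limma-voom 0. Set directly against PK9328, MS172 was higher for 8 and lower for 2 of the 24, against 23.3% and 24.4% of all tested genes. The median of the list was -0.02 for MS172 against DMSO, equal to that of all tested genes.

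Of 10 nuclear effectors and repressors of ERK, 9 were tested and 4 rose with MS172 over DMSO, against 17.9% of all tested genes, namely the ETS repressor ERF (0.34 ± 0.05), the serum response partner ELK1 (0.25 ± 0.04), the repressor CIC (Capicua, 0.23 ± 0.05) and SRF (0.17 ± 0.04). None was called lower in edgeR, DESeq2 or limma-voom, with 1 at an unadjusted p under 0.05 in edgeR. With PK9328 over DMSO, the Capicua partner ATXN1L alone of the 9 was called, higher by 0.20 ± 0.06, against 7.98% of all tested genes. In the JNK and p38 cascade, 13 of 15 genes were tested. With MS172 over DMSO 2 rose and 1 fell, against 17.9% and 17.2% of all tested genes. With PK9328 over DMSO 1 rose and 1 fell, against 7.98% and 7.48%. The p38 activator MAP2K3 rose with MS172 over DMSO by 0.40 ± 0.04 and fell with PK9328 by 0.22. The p38 substrate MAPKAPK2 rose with MS172 by 0.36 ± 0.05, and MAP3K1 was the 1 gene of that list that fell with MS172, by 0.31.

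**Figure D4:**
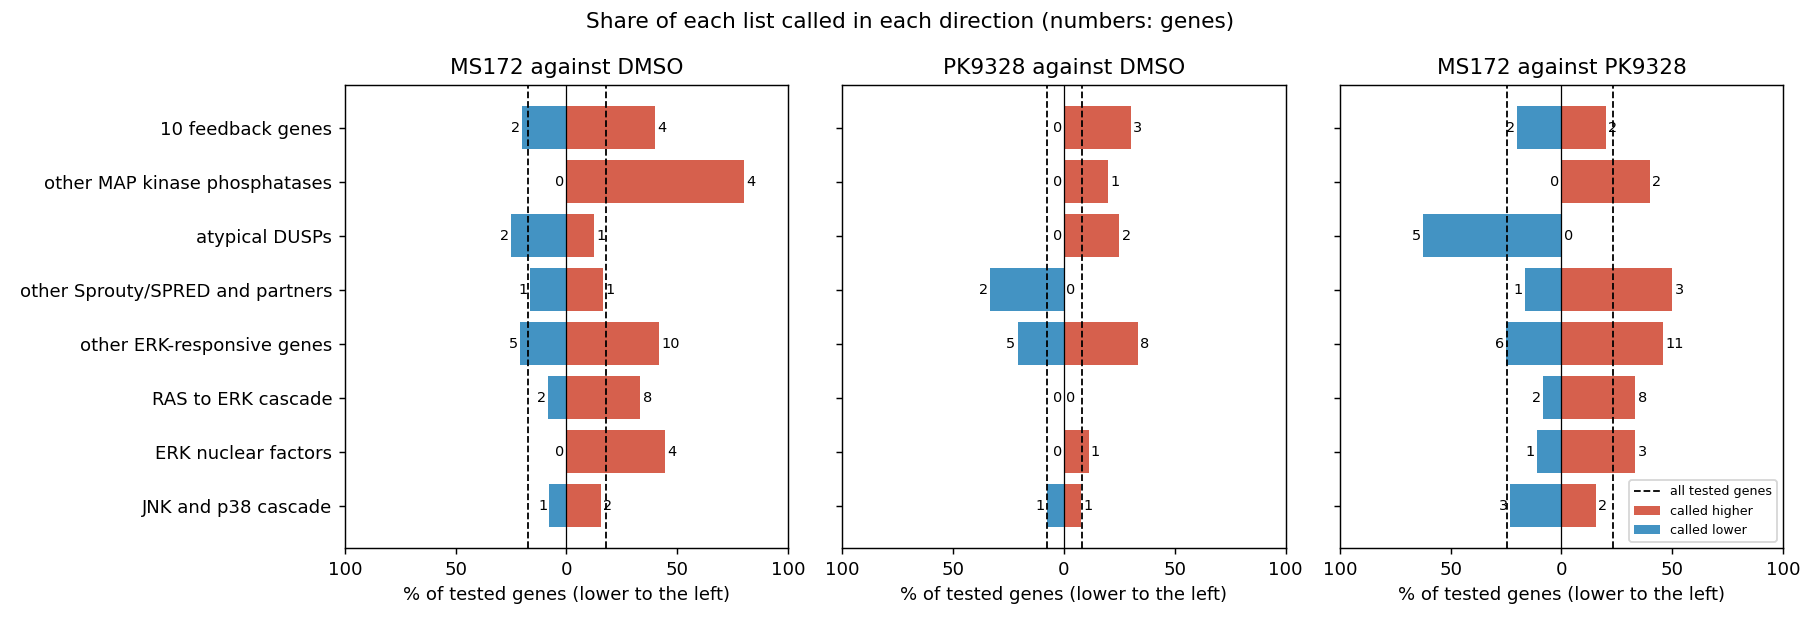
Bars give the percent of tested genes called higher (right) and lower (left) for the 10 feedback genes and 7 related lists in each comparison, with the number of genes on each bar and dashed lines at the percent over all tested genes. The other MAP kinase phosphatases have called genes on the higher side only in all 3 comparisons, and the RAS to ERK cascade has no called gene with PK9328 against DMSO.

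In the 300 bases around each start site (250 before, 50 after), the motif TGACG or its reverse complement was found in 4 of the 10 promoters of the 7 matched genes (1 each of DUSP1, SPRED2, SPRY2 and SPRY4), against 24.6% of 35116 RefSeq promoters. The ETS core CGGAAG was found in 3 of the 10 (DUSP6, PHLDA1 and 1 of SPRED2), against 19.5%. The Capicua motifs TGAATGA and TGAATGG were found in 1 of the 10 each, those of DUSP6 and DUSP1, against 4.01% and 3.20% of promoters. TGACTCA was found at the second SPRED2 start only, against 4.95%, and no CArG box was found, against 1.29%. These matches are letters in a window, and their use in these cells was not measured.

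The motif AUUUA, written ATTTA in DNA, marks AU-rich elements of short-lived transcripts. In the 3′ UTR of the leading transcript it occurred 4 times in the 672 bases of DUSP1 (5.95 per kb, percentile 93.4 of 11185 tested coding genes), 24 times in the 5585 bases of SPRED1 (4.30 per kb), 14 times in the 4672 bases of PHLDA1 (3.00 per kb) and 0 times in the 1118 bases of DUSP5. Of the 10 genes, 8 were above the median density of 1.41 per kb and 9 had at least 1 copy, against 65.5% of genes. The share with at least 1 copy was not matched for length. The median 3′ UTR of the tested coding genes was 900 bases. Among the 10, only those of DUSP1 (672 bases) and SPRY2 (782 bases) were shorter. SPRED1 and DUSP4, which gave no call in any comparison, were among the 8 above the median density. DUSP5 and DUSP6 (0.49 per kb), which gave no call either, were below it. A relation of the motif to the calls was not tested.

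By the distance between centred log2 CPM profiles over the 9 libraries (root mean square), the genes most like SPRED2 were SLC38A1 (0.0256) and SCD (0.0275), followed by FAM83G, WARS and STK40. DUSP6 had the largest change in size with PK9328, though uncalled, and its nearest genes were as far as 0.118 (VASN) to 0.124 (CYP4F22). PHLDA1 and ETV5 were looked up after their values were seen. The nearest to PHLDA1 was NDE1 (0.0254) and the nearest to ETV5 was CCDC71L (0.0196), with KLF6 and ZFP36L1 next.

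**Figure D5:**
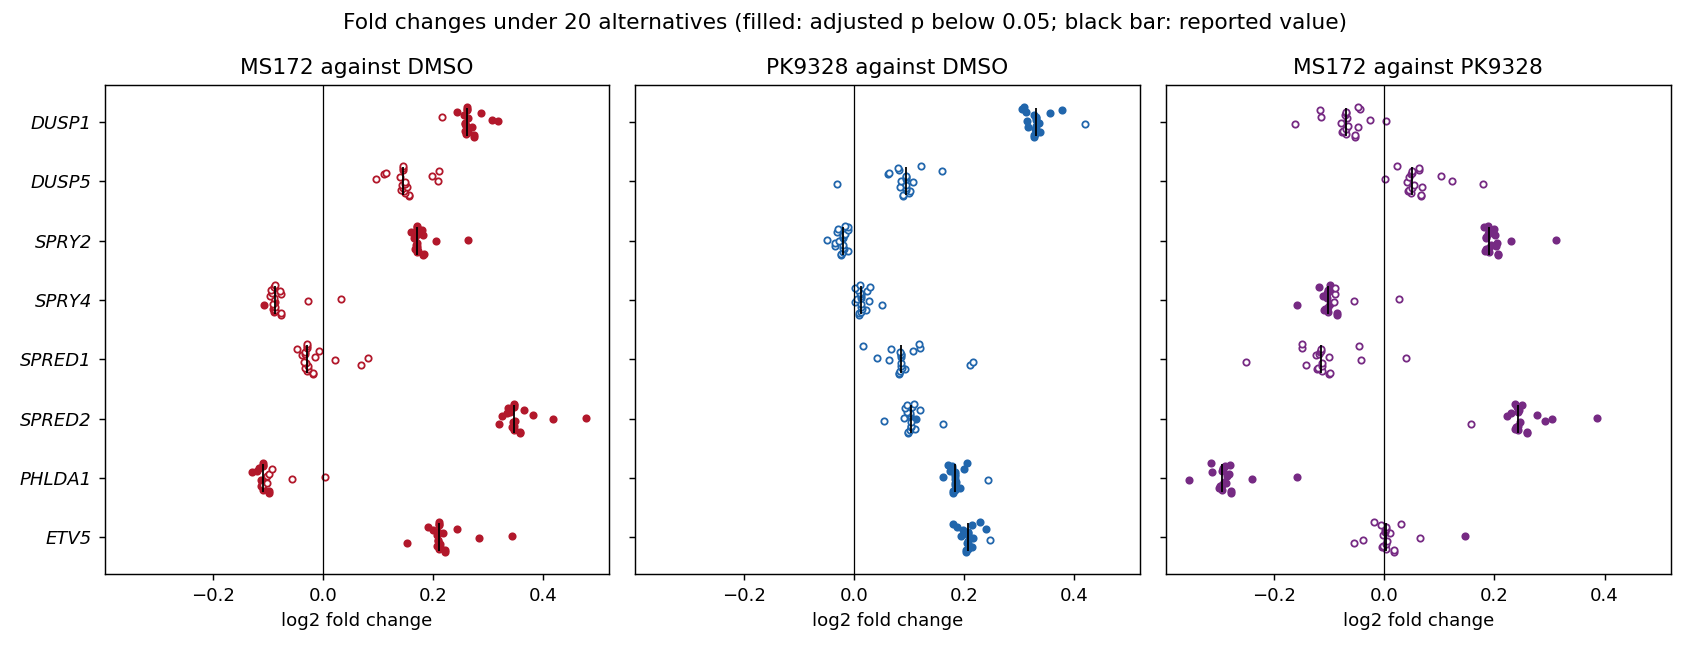
Each point is the log2 fold change of 1 gene under 1 of 20 alternative analyses, filled where the adjusted p is below 0.05, with the reported value as a black bar, for the 3 comparisons. The SPRED2, SPRY2 and ETV5 rises with MS172 over DMSO and the PHLDA1 difference between the compounds are filled throughout, whereas SPRY4 is mostly open for MS172 against DMSO.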

How the data were processed

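Each of 9 deposited tables lists 197653 transcripts with their length and effective length, a TPM value and an estimated count, per the file headers. TPM was scaled by the authors to transcript length and a fixed library total. FastQC 0.11.8 and hg38 are named in the submitters' processing notes, and the quantification program is not given in the sources used here. Identifiers without version matched GENCODE 29 for 193348 transcripts. The others held 0.356% to 0.382% of the estimated reads and were left out. Estimated counts were summed by gene (56865 genes), then rounded. TPM values were summed per gene.

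All 9 libraries entered 1 quasi-likelihood fit of edgeR 4.0.16 in R 4.3.3 (robust dispersion, TMM, filterByExpr, no replicate term, 6 residual degrees of freedom). In that fit 13914 genes were tested, with Benjamini-Hochberg adjustment over all of them. Rise, fall and call mean an adjusted p under 0.05. Errors and 95% intervals come from this fit, and CPM uses TMM-scaled library sizes. The common biological coefficient of variation was 0.0439. Fragment length was taken as the gap between length and effective length in transcripts of 3000 bases or more. The procedure was tested on simulated data.

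The 10 genes and all lists were chosen with earlier results of these data known. Each of the 10 is described whatever its result. Genes named from a list are up to 4 called genes with the lowest p, except those said to be named after their values were seen. A gene that this rule names is not reported here. Replicate numbers did not pair libraries, with correlations of same-numbered deviations from -0.0569 to 0.0174. The 20 alternatives were DESeq2 1.42.0, limma-voom (limma 3.58.1), RLE size factors in edgeR, no filter, 1 CPM in 3 libraries, a replicate block, counts from length-scaled TPM, only the 6 libraries compared, a fragment length covariate, a centred and an uncentred offset for GC content and length (mgcv 1.9.3), and each library left out in turn.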

Additional observations from a re-analysis of the deposited data

Results flagged for a closer look

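For 4 of the 10 genes the effects of the 2 compounds over DMSO differed in the direct test between them. Over all tested genes 47.7% were called in that comparison. The effect of MS172 exceeded that of PK9328 by 0.24 (log2) for SPRED2 and by 0.19 for SPRY2. It was lower than that of PK9328 for PHLDA1, by -0.29, and for SPRY4, by -0.10. PHLDA1 is the 1 gene of the 10 called in opposite directions over DMSO. The SPRY4 difference is the least firm of the 4, with a value of 0.0265 under the uncentred offset.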

How the results depend on the processing

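Over the 3 comparisons, 597 log2 fold changes of the 10 genes were recomputed under 20 alternatives, and 563 stayed on the same side of the threshold, 29 lost their call, 2 gained one and 3 called values turned sign. Without the 3 turned values, a further 20 differed in sign and were called in neither fit. The turned values, all with the uncentred offset, were 0.0323 for SPRY4 and 0.0027 for PHLDA1 in MS172 against DMSO, and 0.0265 for SPRY4 in MS172 against PK9328. The same offset gave ETV5 a call between the compounds (0.15), and the centred one gave SPRED2 a call with PK9328 over DMSO (0.11, adjusted p = 0.0397). The causes were not tested.

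Of the 10 genes, the 2 called lower with MS172 against DMSO became 1 with RLE, DESeq2, no filter, length-scaled TPM or only the 6 libraries compared, 0 with either offset, and 0 to 2 with single libraries left out. Replicate numbers as a block, although they do not pair the libraries, left 0 called lower (SPRY4 -0.09, adjusted p = 0.0773; PHLDA1 -0.11, adjusted p = 0.0543). The 3 higher with PK9328 became 0 with the fragment length covariate. Between the compounds, the 2 higher with MS172 became 1 with length-scaled TPM, and the 2 lower became 1 with the covariate or either offset and 1 to 2 with a library left out.

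Among all tested genes, MS172 against DMSO gave 2486 higher and 2398 lower, but 3914 higher and 1551 lower with the uncentred offset and 1519 lower with length-scaled TPM. PK9328 against DMSO gave 1110 higher and 1041 lower. These became 531 and 535 with length-scaled TPM, 109 and 66 with the covariate, 712 to 1137 and 650 to 1107 with a library left out (lowest without DMSO replicate 1 and without PK9328 replicate 2), and 1048 and 1584 with the uncentred offset. MS172 against PK9328 gave 3240 higher and 3401 lower, 1368 and 1106 with the covariate, and 4714 and 2315 with the uncentred offset. Ranked by CPM in place of TPM with DMSO, SPRY4 came 2, SPRY2 3, SPRED1 6 and DUSP1 7. Depth limits DUSP6 and DUSP4 most, and the 3 libraries per group limit all intervals.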
